A study of Mus musculus with 6 samples.

Results

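Peroxisomes are membrane-bounded organelles that shorten very long-chain and branched fatty acids by beta-oxidation, begin the synthesis of ether lipids, and both make and destroy hydrogen peroxide. Their matrix enzymes are made in the cytosol and imported in folded form by a set of proteins called peroxins, encoded by the Pex genes. In skin, peroxisomes are known to be abundant in the lipid-producing cells of the sebaceous gland. The genes described here are the entries of the Peroxisome pathway in the annotation column of the deposited count table, without Far2, Nos2, Mvk, Pmvk and the Prdx genes. That rule, which uses no measured value, gave 79 of the 18180 genes in the table.

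The data are RNA-seq libraries of mouse tail skin, 3 control and 3 with the label cKO. The genotype of the control group is Mettl3fl/fl;K14creERT2-/-, without the Cre transgene. The cKO label stands for Mettl3fl/fl;K14creERT2+/-, in which the K14 promoter drives a tamoxifen-activated Cre recombinase in basal keratinocytes, so both groups carry the floxed Mettl3 alleles. Per the series' design text, tamoxifen was injected on 5 consecutive days, and 4 weeks later inflamed areas of the tail were sampled in the Cre group and normal tails in the control group. The text does not say separately that controls received tamoxifen, and the sources used here give neither ages nor the number of animals per library. Genotype and inflammation went together in these groups and cannot be told apart. No source used here says whether each library is a different animal, so the p-values reflect only how far these libraries differ, and that spread may be technical.

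Total counts ran from 35855880 to 37043849 per library. Mettl3, which encodes the enzyme that writes N6-methyladenosine on RNA, had counts of 440, 389 and 337 in control and of 569, 512 and 540 under the cKO label. It was higher under the label of its deletion (log2 fold change 0.48, adjusted p = 0.000102, SE 0.11), and the counts cover the whole gene, so they do not separate deleted from retained exons. The keratinocyte markers Krt5, Krt14, Krt1, Krt10, Trp63 and Dsp were all present. Their summed level was 30462 to 30697 CPM in control and 58968 to 59725 CPM in the cKO-labelled libraries. Krt1 holds most of that rise, with means of 2169.6 CPM in control and 20487 CPM in the cKO-labelled libraries. Krt10 and Krt14 also rose, Krt5 rose 1.13-fold, and Trp63 and Dsp were lower. Levels are given as CPM, which are counts per 1000000 counts of the scaled library, in the order of replicates 1 to 3. Levels of different genes are compared only as FPKM, which also divides by gene length. Calls rest on edgeR's quasi-likelihood test with Benjamini-Hochberg adjustment over all 15061 genes tested, with 0.05 as the threshold of the adjusted p. Log2 fold changes are for cKO minus control.

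Transcripts of peroxisome genes were mostly lower in the inflamed skin. Of the 79 genes, 71 passed the filter on low counts, and of these 39 fell, 9 rose and 23 did not pass the test. The 39 that fell are 54.9% of the tested peroxisome genes, beside 30.6% of all genes tested. The 9 that rose, among them Phyh, Crot, Nudt7, Nudt19, Agps, Far1, Xdh and Idh2, are 12.7%, beside 30.8% of all genes tested. All 3 cKO-labelled libraries lay below all 3 control libraries for 43 genes (60.6%, against 32.3% of all genes tested) and above them for 9 (12.7%, against 32.6%). The median log2 fold change was -0.26, with a range from -2.87 to 0.68, beside a median of 0.00 over all genes tested.

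Most of these changes were small. Among the genes that fell, 6 did so at least 2-fold (8.45%, against 4.79% of all genes tested): Eci3, Pxmp4, Acox3, Pex3, Acox2 and Crat. None of the 9 that rose reached 2-fold. The summed level of all 79 genes was 1296, 1299 and 1315 FPKM in control and 1040.4, 1045 and 1067 FPKM in the cKO-labelled libraries. That sum was lower in each cKO-labelled library than in each control library. In bulk tissue, fewer cells that hold these transcripts and less of each transcript per cell cannot be told apart.

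**Figure D1:**
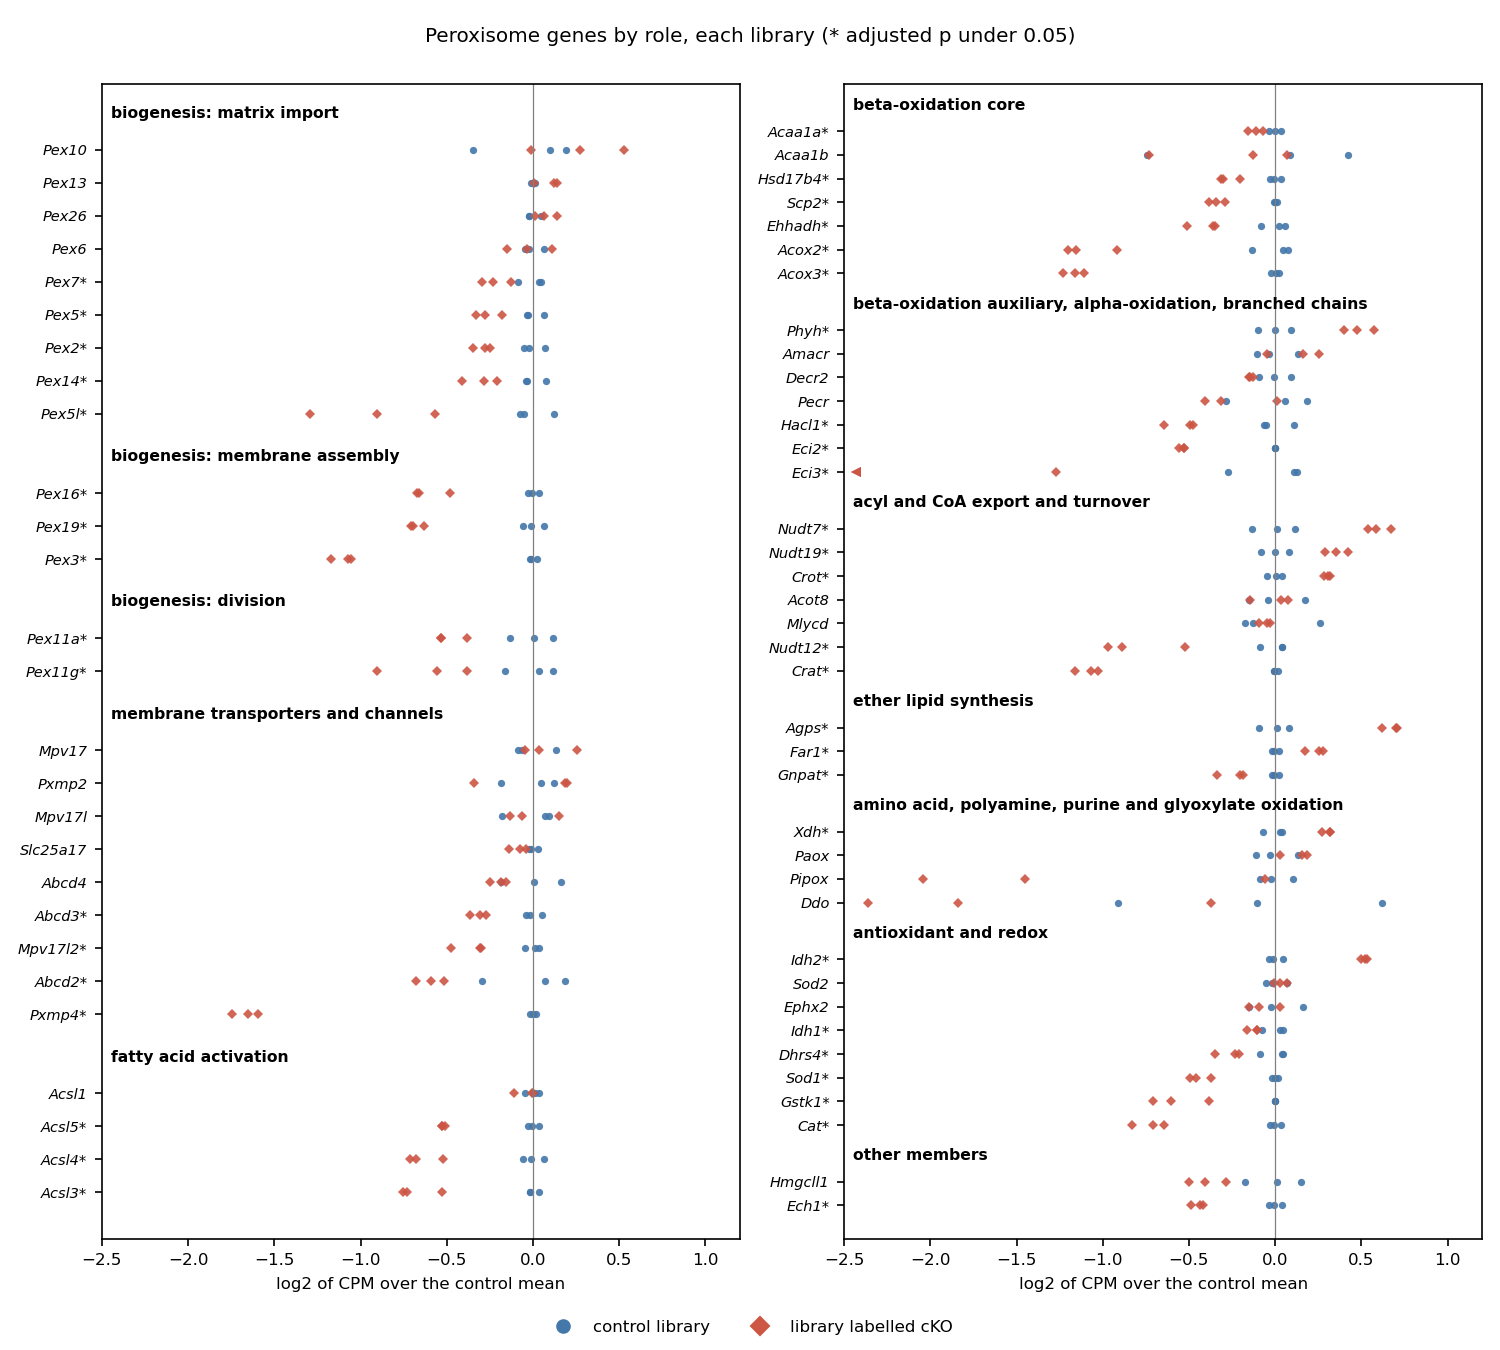
Each point is 1 library, placed by the log2 of its CPM over the mean of the control libraries (0.02 CPM was added to both), for 65 of the 71 tested peroxisome genes in groups by role; asterisks mark genes with an adjusted p under 0.05, and the left-pointing triangle for Eci3 stands for libraries with no count, beyond the axis. In the membrane assembly, division and core beta-oxidation groups the points of the cKO-labelled libraries lie to the left of the control points for 11 of the 12 genes drawn, Acaa1b being the exception.

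**Figure D2:**
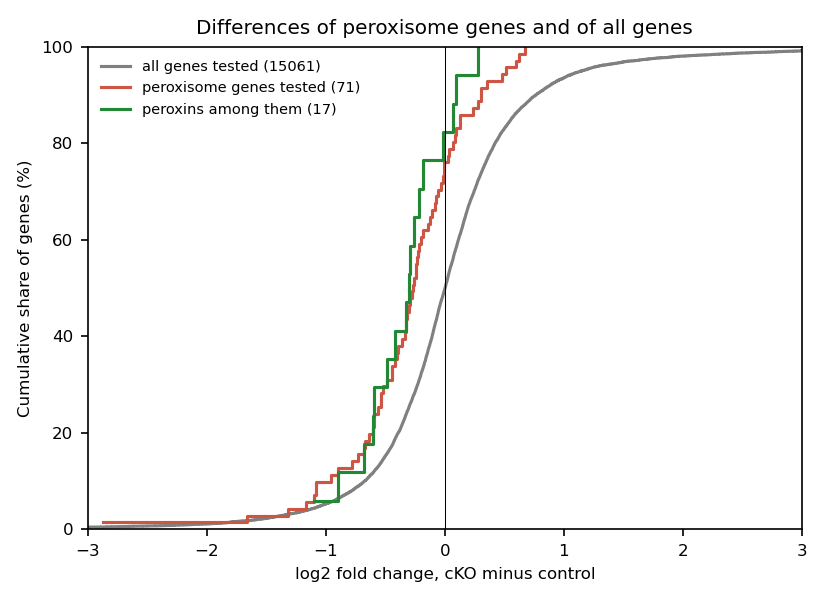
Cumulative share of genes (percent, vertical axis) against the log2 fold change (horizontal axis) for all 15061 genes tested, for the 71 peroxisome genes tested and for the 17 peroxins among them. Of the peroxisome genes 76.1% lie below 0, of all genes 49.8%.

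Upstream sequences are shown for 5 genes that fell, because the nuclear receptors of the PPAR family, which switch on many peroxisome genes, bind repeats of the hexamer AGGTCA. The 250 bases before the annotated start were taken from the RefSeq promoter table of build GRCm38.p6, which is not the mm39 build of the counts, and 59 of the 79 genes had an entry there. Capitals mark AGGTCA on either strand. Cat, Gstk1, Pex11g and Scp2 are the genes that fell and hold a match, and Pxmp4, the gene with the largest fall above 1 CPM, holds none.
Cat (chr2:103485154-103485403, minus strand): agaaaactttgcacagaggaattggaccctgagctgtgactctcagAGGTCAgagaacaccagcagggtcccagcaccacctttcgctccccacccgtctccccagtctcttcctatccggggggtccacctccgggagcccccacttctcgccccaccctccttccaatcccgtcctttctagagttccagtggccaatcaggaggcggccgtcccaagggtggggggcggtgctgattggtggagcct
Gstk1 (chr6:42245685-42245934, plus strand): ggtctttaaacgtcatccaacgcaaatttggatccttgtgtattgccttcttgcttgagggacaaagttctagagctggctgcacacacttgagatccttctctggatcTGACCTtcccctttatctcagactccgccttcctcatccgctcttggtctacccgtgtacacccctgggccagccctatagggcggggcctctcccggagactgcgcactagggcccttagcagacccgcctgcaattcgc
Pex11g (chr8:3467649-3467898, minus strand): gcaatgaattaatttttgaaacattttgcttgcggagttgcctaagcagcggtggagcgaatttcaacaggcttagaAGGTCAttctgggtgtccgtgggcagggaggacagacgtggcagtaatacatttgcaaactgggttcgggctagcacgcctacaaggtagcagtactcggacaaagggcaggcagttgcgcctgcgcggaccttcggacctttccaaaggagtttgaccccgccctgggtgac
Scp2 (chr4:108118548-108118797, minus strand): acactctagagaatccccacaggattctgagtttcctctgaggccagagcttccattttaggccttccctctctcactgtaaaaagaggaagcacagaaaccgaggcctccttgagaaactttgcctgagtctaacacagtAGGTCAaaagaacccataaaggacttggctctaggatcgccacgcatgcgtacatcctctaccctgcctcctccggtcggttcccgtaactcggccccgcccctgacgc
Pxmp4 (chr2:154603674-154603923, minus strand): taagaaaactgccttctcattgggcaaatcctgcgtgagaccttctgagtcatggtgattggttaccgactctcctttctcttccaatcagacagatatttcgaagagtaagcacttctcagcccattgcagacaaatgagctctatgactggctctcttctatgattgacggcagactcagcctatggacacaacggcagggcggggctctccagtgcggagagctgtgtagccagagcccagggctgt
The match begins 204 bases before the start in Cat, 141 in Gstk1, 173 in Pex11g and 109 in Scp2. AGGTCA was present upstream of 8 of the 59 peroxisome genes (13.6%). It was present upstream of 15.8% of all 27025 genes with an entry and of 13.4% of the 11913 tested genes with an entry. The 59 include genes too low to test, so their share is not like for like with that of the tested genes. Of the other 4 genes with a match, Ddo did not pass the test, and Acsl6, Dao and Slc27a2 were too low to test. A pair of AGGTCA copies on 1 strand with 1 base between them was present upstream of 0 of the 59 and of 0.0504% of the tested genes. These are matches of letters in a short window and say nothing of binding.

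Of the 17 peroxin (Pex) genes, all of them tested, 12 fell (70.6%, beside 30.6% of all genes tested), none rose and 5 did not pass the test. The median log2 fold change was -0.30. Their summed level was 215, 219.7 and 217 FPKM in control and 162, 169 and 174 FPKM in the cKO-labelled libraries.

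The 3 peroxins that build the membrane fell most as a group, with a median of -0.68. Pex3, the membrane anchor that receives new membrane proteins, had 79.6, 77.2 and 77.6 CPM in control and 37.6, 37.1 and 34.7 CPM in the cKO-labelled libraries (log2 fold change -1.10, adjusted p = 1.70e-31, SE 0.05). Its groups were far apart, with every cKO-labelled library below 40 CPM. Pex19, the shuttling chaperone that brings membrane proteins to Pex3, had 92.9, 98 and 89.9 CPM in control and 57.8, 57.2 and 60.4 CPM in the cKO-labelled libraries (log2 fold change -0.68, adjusted p = 3.95e-23, SE 0.044). Pex16, which recruits Pex3 to the membrane, had 40.8, 41.4 and 42.6 CPM in control and 26.3, 26.1 and 29.8 CPM in the cKO-labelled libraries (log2 fold change -0.60, adjusted p = 4.70e-13, SE 0.065). For both of these genes too, the highest cKO-labelled library stayed below the lowest control.

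The 3 division genes fell, with a median log2 fold change of -0.48. They include the genes of Pex11 proteins, which elongate and divide peroxisomes. Pex11a, the form that fat-burning stimuli are known to induce, had 23.3, 21.7 and 19.7 CPM in control and 14.9, 14.9 and 16.5 CPM in the cKO-labelled libraries (log2 fold change -0.48, adjusted p = 3.23e-06, SE 0.09). Pex11g, another member of the family, had 6.81, 8.26 and 7.81 CPM in control and 4.07, 5.18 and 5.85 CPM in the cKO-labelled libraries (log2 fold change -0.60, adjusted p = 0.000676, SE 0.16). In both genes the groups were separate, and for Pex11g the cKO-labelled libraries ran from 4.07 to 5.85 CPM.

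Among the 11 genes of matrix import, 6 fell (54.5%, beside 30.6% of all genes tested), none rose and 5 did not pass. The receptor gene Pex5, whose product carries proteins with the common C-terminal targeting signal, was lower and had 14.5, 14.4 and 15.5 FPKM in control and 12, 12.4 and 13.3 FPKM in the cKO-labelled libraries (log2 fold change -0.26, adjusted p = 3.26e-05, SE 0.055). Pex7, the receptor for the N-terminal signal, fell 1.16-fold (log2 fold change -0.22, adjusted p = 0.00264). The docking gene Pex14 had 30.6, 33 and 30.5 CPM in control and 23.5, 25.7 and 27.2 CPM in the cKO-labelled libraries (log2 fold change -0.30, adjusted p = 0.000213, SE 0.072), while its docking partner Pex13, the most abundant of these genes in FPKM, had 76.6, 75.8 and 77.1 CPM in control and 76.9, 83.1 and 84.2 CPM in the cKO-labelled libraries and did not pass the test (log2 fold change 0.09, adjusted p = 0.0598). In Pex13 the groups overlapped. It was called higher without cKO replicate 1 (log2 fold change 0.13, adjusted p = 0.0117), under upper-quartile scaling (adjusted p = 0.0121), without scaling factors (adjusted p = 0.0171), and by limma on filtered FPKM with 1 or 0.1 added (adjusted p = 0.0423 and 0.0426). Of the ubiquitin ligase subunits that recycle the receptor, Pex2 fell (log2 fold change -0.29, adjusted p = 7.76e-07), and Pex10 did not pass, with a log2 fold change of 0.28. Pex6, a subunit of the motor that pulls the receptor out, and its anchor Pex26 did not pass, with adjusted p of 0.833 and 0.421. Pex5l, a relative of Pex5 known as a channel partner in neurons, was scarce at 3.05, 2.65 and 2.69 CPM in control and 1.88, 1.13 and 1.48 CPM in the cKO-labelled libraries (log2 fold change -0.90, adjusted p = 0.00375, SE 0.28).

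Among the 11 membrane transporter and channel genes, 10 were tested, with a median of -0.14. Of these, 4 fell (40%, beside 30.6% of all genes tested) and 1 rose (10%, beside 30.8%). Pxmp4, an integral peroxisomal membrane protein, had 129, 127 and 126 CPM in control and 37.9, 40.6 and 42.1 CPM in the cKO-labelled libraries. The control libraries differed from each other by a few CPM, and the cKO-labelled libraries lay far below them, a fall of 3.17-fold (log2 fold change -1.66, adjusted p = 4.85e-47, SE 0.043). The peroxisomal ABC transporters carry fatty acyl-CoA into the organelle. Abcd2, an importer of very long-chain acyl-CoA, had 12.6, 9.77 and 13.7 CPM in control and 7.5, 7.98 and 8.4 CPM in the cKO-labelled libraries (log2 fold change -0.59, adjusted p = 3.14e-05, SE 0.13). Abcd3, the importer of branched-chain acyl-CoA, had 39, 39.6 and 41.7 FPKM in control and 32.9, 33.8 and 31.7 FPKM in the cKO-labelled libraries (log2 fold change -0.31, adjusted p = 2.32e-13, SE 0.033). Neither gene overlapped between groups.

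Slc25a17, the carrier of coenzyme A and other cofactors and the gene of this group with the highest mean FPKM over all 6 libraries, had 75.1, 77.4 and 74.6 CPM in control and 68.7, 72 and 73.5 CPM in the cKO-labelled libraries and did not pass (log2 fold change -0.08, adjusted p = 0.0867). Mpv17l2, which is known mainly from mitochondria, fell (log2 fold change -0.36, adjusted p = 0.000364). Abcd4, Mpv17, Mpv17l and Pxmp2 did not pass, with adjusted p from 0.0966 for Abcd4 to 0.95 for Mpv17l. Abcd4, whose product works in lysosomes, had an adjusted p of 0.0296 without control replicate 1.

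The acyl-CoA synthetases activate fatty acids before import. Of 5 genes 4 were tested and 3 fell (75%, beside 30.6% of all genes tested). Acsl5, the most abundant in FPKM, had 219, 223 and 229 CPM in control and 156, 157 and 155 CPM in the cKO-labelled libraries (log2 fold change -0.52, adjusted p = 3.57e-28, SE 0.027). Acsl4, which prefers arachidonate, had 58, 63.4 and 60.1 CPM in control and 37.8, 42.1 and 36.9 CPM in the cKO-labelled libraries (log2 fold change -0.63, adjusted p = 6.72e-17, SE 0.055), and Acsl3, known from lipid droplets, had 36.5, 37.8 and 36.6 CPM in control and 25.6, 22.3 and 21.9 CPM in the cKO-labelled libraries (log2 fold change -0.67, adjusted p = 1.81e-13, SE 0.07). The groups did not overlap for these 3 genes. Acsl1, known for fuelling oxidation and fat storage, had 130.3, 123 and 128 CPM in control and 127, 118 and 127 CPM in the cKO-labelled libraries, with overlapping groups (log2 fold change -0.04, adjusted p = 0.368).

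In the core of beta-oxidation 7 of 8 genes fell (87.5%, beside 30.6% of all genes tested) and 1 did not pass. The median log2 fold change was -0.31. The acyl-CoA oxidases carry out the opening step, which releases hydrogen peroxide. Acox3, an oxidase of branched-chain acyl-CoA, had 116, 114 and 118 CPM in control and 53.7, 51.8 and 49.5 CPM in the cKO-labelled libraries (log2 fold change -1.17, adjusted p = 4.84e-38, SE 0.042), and Acox2, the oxidase of branched acids and bile acid intermediates, had 26.4, 23.3 and 26.9 CPM in control and 13.5, 11.1 and 11.5 CPM in the cKO-labelled libraries (log2 fold change -1.09, adjusted p = 2.45e-17, SE 0.092). Both fell more than 2-fold, and the groups were far apart.

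Of the later steps, Scp2, Hsd17b4, Ehhadh and Acaa1a fell between 1.08-fold and 1.32-fold. Scp2, the gene of a thiolase and lipid carrier with the highest FPKM in this group, had 286, 289.6 and 288 CPM in control and 227, 221 and 235 CPM in the cKO-labelled libraries (log2 fold change -0.34, adjusted p = 6.81e-21, SE 0.024). Hsd17b4, the bifunctional enzyme for very long and branched chains, fell 1.21-fold (log2 fold change -0.27, adjusted p = 3.09e-07). Its counterpart Ehhadh had 7.87, 7.14 and 7.7 CPM in control and 5.95, 5.31 and 5.91 CPM in the cKO-labelled libraries (log2 fold change -0.40, adjusted p = 0.0149, SE 0.15), and its adjusted p was 0.051 without control replicate 1 and 0.0637 without cKO replicate 2. The thiolase gene Acaa1a had 63.6, 61.9 and 60.6 CPM in control and 57.6, 59.2 and 55.6 CPM in the cKO-labelled libraries (log2 fold change -0.11, adjusted p = 0.0396, SE 0.048), and its call was lost without control replicate 1 or 2 and without cKO replicate 1 or 3 (adjusted p from 0.0705 to 0.176). The call was also lost under upper-quartile scaling, without scaling factors, without a count filter and by limma on FPKM (adjusted p from 0.0529 to 0.134). Acaa1b is a near-identical copy that could share reads with Acaa1a and had counts of 39, 30 and 17 in control and of 26, 30 and 17 under the cKO label (log2 fold change -0.23, adjusted p = 0.698).

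Of the auxiliary and alpha-oxidation genes 3 of 7 tested were lower (42.9%, beside 30.6% of all genes tested) and 1 higher (14.3%, beside 30.8%). Eci2, an isomerase for unsaturated chains, had 72.6, 72.5 and 72.7 CPM in control and 50.3, 49.4 and 50.4 CPM in the cKO-labelled libraries (log2 fold change -0.54, adjusted p = 1.48e-16, SE 0.047). Its relative Eci3 had counts of 21, 27 and 28 in control and of 10, 0 and 0 under the cKO label (log2 fold change -2.87, adjusted p = 0.0006, SE 0.74), so that the largest fold change of any peroxisome gene rests on few counts. DESeq2 gave it an adjusted p of 0.136, and reads of Eci2 and Eci3 could be shared. Phyh and Hacl1 work in sequence in alpha-oxidation, which removes a carbon from phytanic acid. Phyh, which hydroxylates the acid, had 22.2, 19.5 and 20.9 CPM in control and 29, 27.5 and 31 CPM in the cKO-labelled libraries (log2 fold change 0.48, adjusted p = 8.36e-08, SE 0.077), whereas Hacl1, which cleaves the product, had 16.3, 18.4 and 16.5 CPM in control and 12.1, 10.9 and 12.2 CPM in the cKO-labelled libraries (log2 fold change -0.54, adjusted p = 4.11e-06, SE 0.1). Phyh rose and Hacl1 fell with no overlap in either gene, and their ratio in FPKM was 3.42, 2.65 and 3.18 in control and 6, 6.33 and 6.35 in the cKO-labelled libraries. Here and below, pairs of genes for such ratios were chosen after their values were seen. Decr2, Pecr and Amacr did not pass, with log2 fold changes of -0.14, -0.23 and 0.13.

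The genes that export products and turn over coenzyme A had 3 of 8 lower (37.5%) and 3 higher (37.5%), near the 30.6% and 30.8% of all genes tested, and 2 did not pass. Crat, which joins acetyl groups to carnitine and has the highest mean FPKM of this group over all 6 libraries, had 152, 154 and 152 CPM in control and 68.2, 72.7 and 74.8 CPM in the cKO-labelled libraries (log2 fold change -1.09, adjusted p = 5.48e-40, SE 0.036). Crot, which does so for medium chains, had 64, 61.8 and 65.6 CPM in control and 79.6, 78.9 and 77.6 CPM in the cKO-labelled libraries (log2 fold change 0.30, adjusted p = 9.62e-09, SE 0.044). The ratio of Crot to Crat in FPKM was 0.397, 0.377 and 0.406 in control and 1.1, 1.02 and 0.977 in the cKO-labelled libraries, so the 2 genes stood near equal FPKM in the cKO-labelled libraries and not in control. Nudt7 and Nudt19, which cleave coenzyme A, both rose. Nudt7 had 7.85, 9.32 and 8.68 CPM in control and 13.7, 12.9 and 12.5 CPM in the cKO-labelled libraries (log2 fold change 0.60, adjusted p = 7.23e-06, SE 0.12), and Nudt19 rose 1.28-fold (log2 fold change 0.36, adjusted p = 3.63e-07). Nudt12, which hydrolyses NADH, had 7.06, 7.73 and 7.73 CPM in control and 3.82, 4.05 and 5.22 CPM in the cKO-labelled libraries (log2 fold change -0.78, adjusted p = 2.05e-05, SE 0.16). The Nudt7 and Nudt12 groups were each separate, and the ratio of Nudt7 to Nudt12 was 0.749, 0.812 and 0.757 in control and 2.42, 2.15 and 1.62 in the cKO-labelled libraries. Mlycd and Acot8, which break down malonyl-CoA and acyl-CoA, did not pass, with adjusted p of 0.701 and 0.95.

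Ether lipid synthesis was the role group with a positive median log2 fold change, 0.24, over its 3 genes. Gnpat and Agps catalyse its opening steps inside the peroxisome, and Far1 supplies the fatty alcohol. Gnpat had 47.5, 48.9 and 47.8 CPM in control and 41.8, 42.2 and 38.1 CPM in the cKO-labelled libraries (log2 fold change -0.24, adjusted p = 0.000153, SE 0.056). Agps had 30.7, 28.5 and 32.2 CPM in control and 46.8, 49.8 and 49.6 CPM in the cKO-labelled libraries (log2 fold change 0.68, adjusted p = 2.18e-16, SE 0.06), which was the largest rise of any peroxisome gene tested. Far1 had 77.2, 79.6 and 78 CPM in control and 93.5, 88.2 and 94.9 CPM in the cKO-labelled libraries (log2 fold change 0.24, adjusted p = 5.96e-07, SE 0.041). None of the 3 overlapped between groups, and the ratio of Agps to Gnpat in FPKM was 0.262, 0.236 and 0.273 in control and 0.454, 0.479 and 0.527 in the cKO-labelled libraries.

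**Figure D3:**
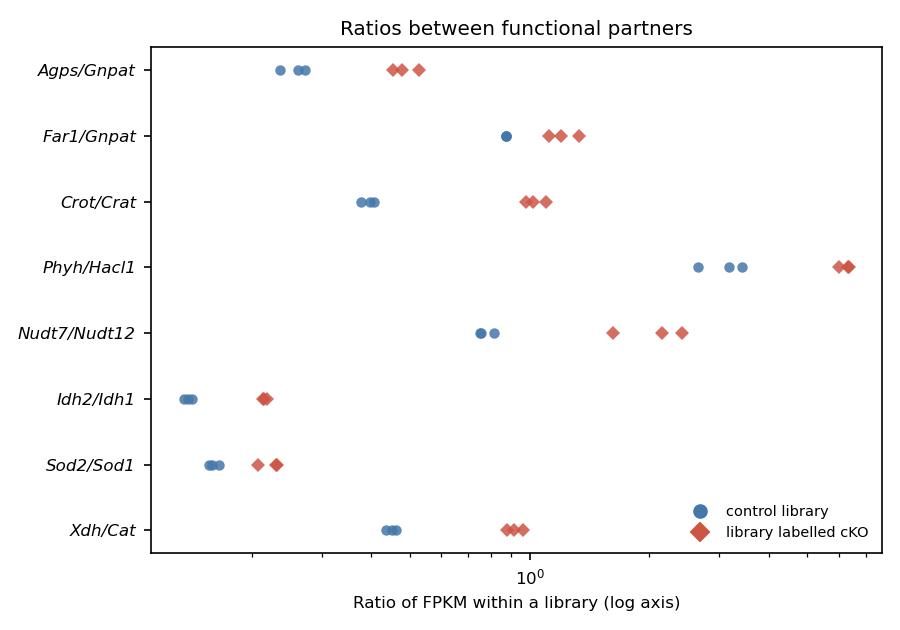
Ratio of FPKM between 8 pairs of peroxisome genes within each library (horizontal log axis); circles are control libraries and diamonds libraries labelled cKO. The pairs were chosen after their values were seen, and in each the points of the 2 groups do not overlap.

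Of the 8 oxidases and aminotransferases of amino acids, polyamines, purines and glyoxylate, 4 were tested. Xdh, which makes uric acid from purines and hydrogen peroxide as a by-product, had 85.8, 92.5 and 91.8 CPM in control and 112, 109 and 112 CPM in the cKO-labelled libraries (log2 fold change 0.30, adjusted p = 6.34e-11, SE 0.037). The polyamine oxidase gene Paox did not pass (log2 fold change 0.13, adjusted p = 0.199). Ddo, an oxidase of D-aspartate, had counts of 22, 12 and 37 in control and of 6, 18 and 4 under the cKO label, and Pipox, an oxidase of sarcosine and pipecolate, had counts of 34, 29 and 31 in control and of 7, 30 and 11 under the cKO label. Neither passed (adjusted p = 0.0537 and 0.103), and cKO replicate 2 was the highest of its group in both. Without it the adjusted p was 0.0136 for Ddo, with a log2 fold change of -2.20, and 0.0183 for Pipox, with -1.78. Without control replicate 2, the adjusted p of Ddo was 0.0313. With no library left out, limma-voom gave an adjusted p of 0.0425 for Ddo (log2 fold change -1.43) and of 0.0402 for Pipox (log2 fold change -1.20).

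Of 8 antioxidant and redox genes 5 fell (62.5%, beside 30.6% of all genes tested) and 1 rose (12.5%, beside 30.8%). Catalase (Cat), which destroys hydrogen peroxide in the peroxisome, had 109, 114 and 110.1 CPM in control and 70.9, 62.3 and 67.7 CPM in the cKO-labelled libraries (log2 fold change -0.73, adjusted p = 4.82e-26, SE 0.041). Sod1, the superoxide dismutase of cytosol and peroxisome and the most abundant peroxisome gene in FPKM, had 79.9, 78.1 and 78.9 CPM in control and 56.1, 57.4 and 61.1 CPM in the cKO-labelled libraries (log2 fold change -0.44, adjusted p = 1.08e-13, SE 0.046). Its mitochondrial counterpart Sod2 overlapped between groups at 79.9, 73.3 and 75.3 CPM in control and 77.6, 79.8 and 75.8 CPM in the cKO-labelled libraries (log2 fold change 0.03, adjusted p = 0.573). Gstk1, a glutathione transferase, had 16.2, 16.2 and 16.2 CPM in control and 10.7, 12.4 and 9.92 CPM in the cKO-labelled libraries (log2 fold change -0.56, adjusted p = 3.77e-06, SE 0.1). The isocitrate dehydrogenases, which make NADPH, moved apart. Idh1, of cytosol and peroxisome, fell 1.09-fold (log2 fold change -0.12, adjusted p = 0.00103), and Idh2, of mitochondria, had 42.2, 41.5 and 43.9 CPM in control and 61, 60 and 61.6 CPM in the cKO-labelled libraries (log2 fold change 0.52, adjusted p = 3.14e-14, SE 0.052). Dhrs4, a retinol and carbonyl reductase, fell (log2 fold change -0.26, adjusted p = 0.000858), and the epoxide hydrolase gene Ephx2 did not pass (log2 fold change -0.07, adjusted p = 0.776).

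Ech1, an isomerase of dienoyl-CoA in peroxisomes and mitochondria, was the second most abundant peroxisome gene by mean FPKM over all 6 libraries and had 123, 120.3 and 127 CPM in control and 91.1, 88.1 and 92.4 CPM in the cKO-labelled libraries (log2 fold change -0.45, adjusted p = 2.72e-18, SE 0.036). Hmgcll1, a cytosolic lyase gene, did not pass (log2 fold change -0.40, adjusted p = 0.179).

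The 8 genes that did not pass the count filter are Acnat1, Acsl6, Agxt, Baat, Dao, Hao1, Hao2 and Slc27a2. Baat, which joins bile acids to amino acids in liver, had 8, 2 and 6 counts in the cKO-labelled libraries and none in control. Baat was not tested. Setting 3 counts over the control group as the floor gives a ratio of 5.44, with no allowance for counting error in its 16 counts. The glycolate oxidase gene Hao1 had counts of 13, 9 and 10 in control and of 5, 21 and 4 under the cKO label. Acsl6, a synthetase best known from brain, had counts of 6, 9 and 7 in control and of 3, 4 and 13 under the cKO label, and Slc27a2, an activating transporter of liver and kidney, had counts of 13, 1 and 0 in control and of 5, 9 and 1 under the cKO label. For the last of these the 13 counts of control replicate 1 hold nearly the whole control sum. Agxt, Dao, Acnat1 and Hao2 had at most 5 counts in any library, so a difference was not detectable at this depth. A count of 0 allows up to 0.081 to 0.0837 CPM, for counting error only. The hepatocyte markers Alb, Apoa1, Ttr, Serpina1a and Cyp2e1 summed to 14.8 to 16.6 CPM in control and 7.33 to 10.1 CPM in the cKO-labelled libraries, with Ttr and Serpina1a at 0 in the cKO-labelled libraries. Cyp2e1 holds most of that sum, with means of 12.4 CPM in control and 7.15 CPM in the cKO-labelled libraries. Alb had means of 3.52 and 1.32 CPM.

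**Figure D4:**
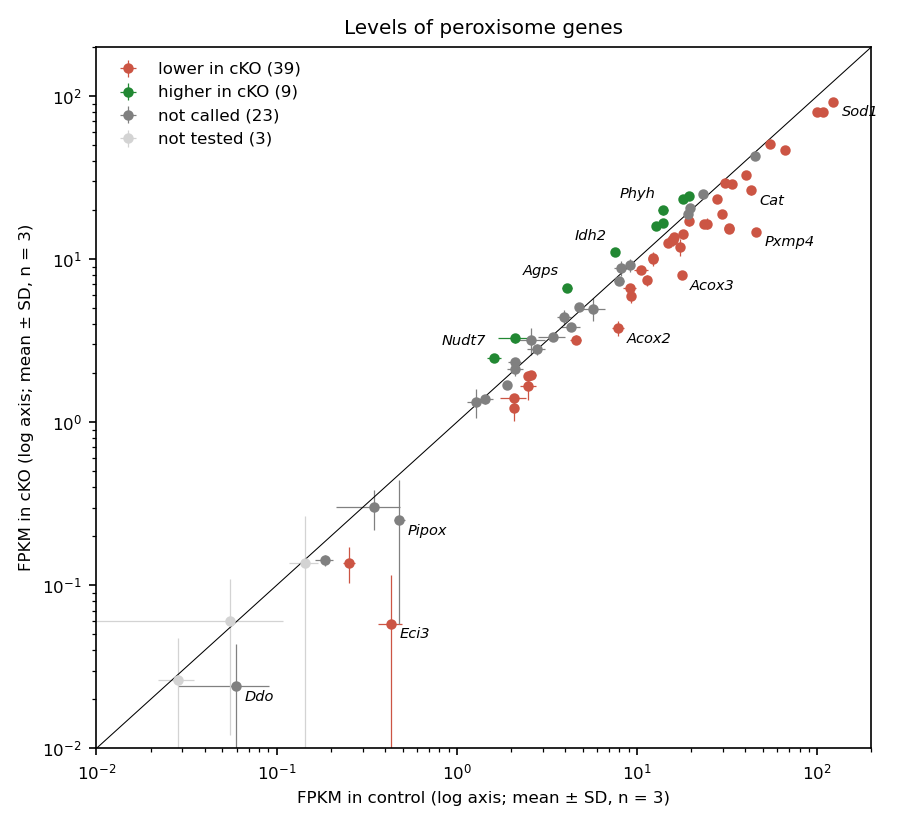
Mean FPKM in the cKO-labelled libraries (vertical log axis) against control (horizontal log axis) for the 74 peroxisome genes with a mean above 0.02 FPKM in both groups; bars are SD over 3 libraries, cut off where they reach the axis, and the diagonal marks equal levels. The 39 genes that fell lie below the diagonal at all levels, and the 9 that rose lie between 1.61 and 24.3 FPKM.

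Of 20 genes linked to peroxisomes outside the pathway entry, 19 were tested. Of these, 10 fell (52.6%, beside 30.6% of all genes tested) and 7 rose (36.8%, beside 30.8%). Acot12, a thioesterase, fell 6.05-fold (from 3.52 ± 0.428 to 0.578 ± 0.151 CPM), Acsbg1, a synthetase of very long-chain acyl-CoA, fell 2.41-fold (from 399 ± 0.817 to 166 ± 3.55 CPM), and Uox, the peroxisomal urate oxidase that acts on the product of Xdh, rose 13.02-fold (from 3.36 ± 0.594 to 43.9 ± 1.68 CPM, adjusted p = 2.37e-46). Uox had 3.95, 2.76 and 3.38 CPM in control and 45.3, 44.3 and 42 CPM in the cKO-labelled libraries. Genes for division shared with mitochondria had 2 of 3 tested genes lower (66.7%, beside 30.6% of all genes tested), Fis1 and Mff. Genes for peroxisome turnover had 4 of 5 lower (80%, beside 30.6% of all genes tested). These 4 ran from -0.44 to -0.11 on the log2 scale, and Nbr1, a receptor for selective autophagy, fell most. Of 7 genes for ether lipid steps after the peroxisome 5 fell (71.4%, beside 30.6% of all genes tested) and 1 rose (14.3%, beside 30.8%). Tmem189, the desaturase that makes plasmalogens, fell 1.70-fold (log2 fold change -0.76, adjusted p = 2.48e-26), and Cept1, which adds the head group, rose (log2 fold change 0.26, adjusted p = 9.58e-09).

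PPAR receptors and their partners had 6 of 10 lower (60%, beside 30.6% of all genes tested) and 2 higher (20%, beside 30.8%). Ppara, the receptor that switches on peroxisomal beta-oxidation in liver, had 14.3, 13.6 and 13.4 CPM in control and 3.27, 4.82 and 3.96 CPM in the cKO-labelled libraries (log2 fold change -1.78, adjusted p = 4.67e-19, SE 0.14). Pparg, the receptor of fat cells and sebocytes, had 24.9, 22.9 and 21.5 CPM in control and 12.6, 12.3 and 11.9 CPM in the cKO-labelled libraries (log2 fold change -0.91, adjusted p = 4.30e-14, SE 0.092). Ppard, the form most linked to keratinocytes, had 38.5, 45.2 and 42.2 CPM in control and 60.3, 63.2 and 58.6 CPM in the cKO-labelled libraries (log2 fold change 0.53, adjusted p = 6.66e-14, SE 0.054). Ppara and Pparg thus fell and Ppard rose, with no overlap between groups in any of the 3. The other gene of the list that rose was the coactivator Ppargc1b (log2 fold change 0.51, adjusted p = 0.00379).

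Marker levels of several cell types moved with these results. The counts below stand beside 30.6% lower and 30.8% higher of all genes tested. Of 13 sebaceous gland markers 12 were tested, 11 fell (91.7%) and none rose, with summed levels of 3045 to 3099 CPM in control and 1417 to 1433 CPM in the cKO-labelled libraries. That list includes Far2, a pathway entry that the rule left out. Mogat2, the marker not tested, had no count in control and counts of 1, 4 and 8 under the cKO label. Of 8 adipocyte markers 7 fell and none rose, with a median log2 fold change of -0.72 and 630.5 to 643 CPM in control and 512 to 520.0 CPM in the cKO-labelled libraries. Fabp4, which did not pass the test, and Cfd hold most of that sum, and the other 6 summed to 157 to 166 CPM in control and 94.9 to 99.9 CPM in the cKO-labelled libraries. Neutrophil markers were higher for 7 of 7 tested (100.2 to 106 CPM in control and 3479 to 3540.3 CPM in the cKO-labelled libraries). Nearly all of that sum is S100a8 and S100a9, which inflamed keratinocytes are also known to make, with 93.4 to 100.2 CPM in control and 3453 to 3513 CPM in the cKO-labelled libraries. The other 6 neutrophil markers summed to 5.99 to 8.12 CPM in control and 26.2 to 27.8 CPM in the cKO-labelled libraries. Macrophage markers were higher for 7 of 8 (522 to 538 CPM in control and 699.9 to 721 CPM in the cKO-labelled libraries) and fibroblast markers for 5 of 6, with Dcn lower (11084 to 11187 CPM in control and 16136 to 16179 CPM in the cKO-labelled libraries). Of the 6 keratinocyte markers 4 were higher and 2, Dsp and Trp63, lower. Skeletal muscle markers had 1 of 6 higher, with 10.5 to 14.2 CPM in control and 13 to 28.9 CPM in the cKO-labelled libraries, and cKO replicate 2 was the highest. The part of these markers in the peroxisome results was not tested.

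**Figure D5:**
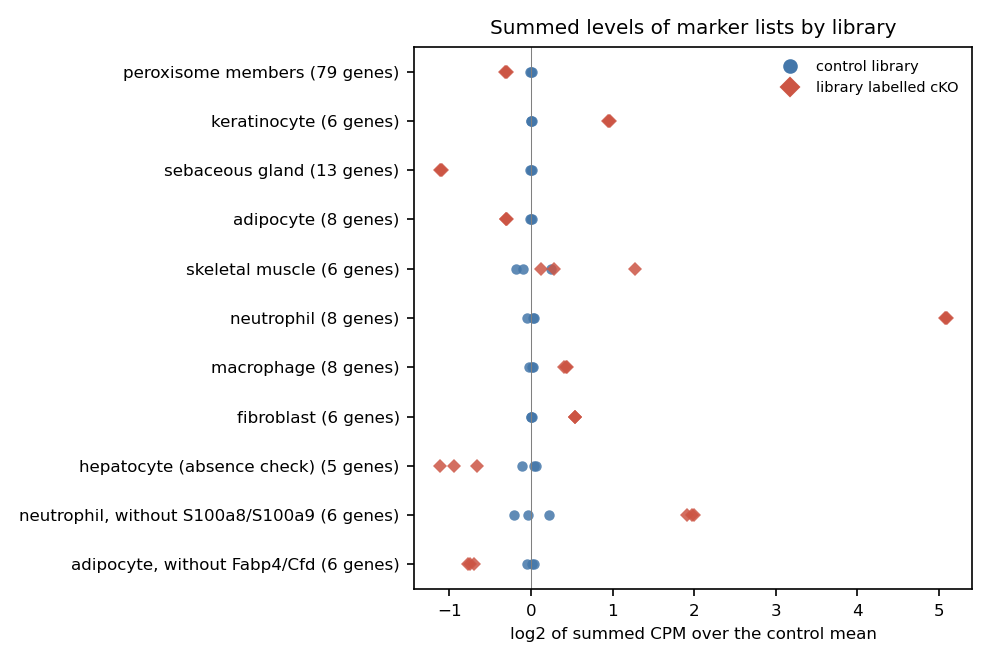
Summed CPM of the peroxisome genes and of each marker list, as log2 over the mean of the control libraries, with 1 point per library. The last rows show the neutrophil list without S100a8 and S100a9 and the adipocyte list without Fabp4 and Cfd, which were chosen after their values were seen; the first lies far closer to 0 than the whole neutrophil list, and the second lies further below 0 than the whole adipocyte list.

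These calls depend on how the spread is taken. The spread between libraries of a group (the biological coefficient of variation, BCV) was also preset, and a likelihood ratio test then took the place of the quasi-likelihood test. At 20%, 14 of the 71 tested peroxisome genes were lower and 2 higher, beside 10.2% lower and 12.2% higher of all genes tested. Of the calls in the main fit 34 were lost at 20%, and 2 of the genes called at 20% were not called in the main fit. At 40%, 2 of the 71 were lower, Eci3 and Pxmp4, and none was higher, beside 2.10% and 3.04% of all genes. At 40% the share of lower peroxisome genes was thus close to that of all genes.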

How the data were processed

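The members and gene lists were chosen with earlier results of these data known. Total RNA of tail skin was isolated with TRIzol, and a VAHTS Universal V5 kit was used for the libraries, per the labels' protocols. The submitters' processing notes name HTSeq, HISAT2, fastp and mm39, without versions. Annotation, strandedness and the counting of multiply aligned reads are not given in these sources, so reads of antisense partners and near-identical copies cannot be separated. The authors deposited raw whole-number counts per gene and FPKM (fragments per kilobase per 1000000 counted) for 6 libraries, and both tables were used as deposited.

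Counts were tested with edgeR 4.0.16 in R 4.3.3, with filterByExpr (minimum count 10, minimum total 15), TMM scaling, robust quasi-likelihood fits, group as the only term and Benjamini-Hochberg adjustment. Standard errors were obtained as the ratio of the absolute log2 fold change to the root of the F statistic. The steps were tested on simulated data. Members were grouped by textbook role. Library values were printed for up to 3 called members per role with the largest change and at least 1 CPM and for the member with the highest FPKM; Ddo, Pipox, Eci3, Uox and further members were added after their values were seen. Of the list outside the pathway entry, Ech1 and Acnat1 were counted as members. Protein targeting signals were not analysed here, and some genes are counted but not reported by name. Alternatives used DESeq2 1.42.0, limma 3.58.1 (voom, and log2 of FPKM with 1 or 0.1 added), other scaling, filters and thresholds, and each library left out.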

Additional observations from a re-analysis of the deposited data

How the results depend on the processing

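Over 18 alternatives without an assumed BCV, 44 of the 48 called peroxisome genes kept direction and side of the threshold wherever tested. The exceptions were Acaa1a, Ehhadh, Eci3 and Idh1. Among these alternatives, the threshold of 0.01 was applied to the main fit without refitting. Pex5l, at a mean of 0.252 FPKM in control and 0.137 under the cKO label, went untested where a mean of 0.5 FPKM was required. The number lower was 38 to 40 and the number higher 9 to 10 when 1 library was left out, and the peroxisome median log2 fold change ran from -0.29 to -0.25. With an assumed BCV of 20% the numbers were 14 lower and 2 higher, and 2 of these genes were not called in the main fit. With 40% the numbers were 2 and 0. The median was -0.13 by limma on log2(FPKM + 1) without a filter, -0.21 when a mean of 0.5 FPKM was required, and -0.22 with 0.1 added instead of 1; the cause was not tested. With the 6 left-out pathway entries added back, 42 of 77 tested were lower and 10 higher. Idh1 had an adjusted p of 0.0741 on log2(FPKM + 1) without a filter.

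With the replicate number as a block, 39 members were lower and 9 higher, as without it. Same-numbered libraries did not deviate together (correlations of -0.015, -0.015 and -0.058). A pairing with a small effect could give the same values, so whether the numbers pair the libraries is not known.

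The sign changed in 8 genes, none of them called in any of the fits concerned. Without 1 library the log2 fold change ran from -0.50 to 0.05 for Acaa1b, -0.08 to 0.09 for Acot8, -0.06 to 0.00 for Acsl1, -0.14 to 0.02 for Ephx2, -0.13 to 0.09 for Mlycd, -0.10 to 0.05 for Mpv17l, -0.09 to 0.05 for Pex6 and -0.05 to 0.20 for Pxmp2. Under upper-quartile scaling and without scaling factors it was 0.02 and 0.01 for Acot8, 0.02 and 0.01 for Mpv17l, and 0.01 and 0.00 for Pex6. On the 3 FPKM settings it was 0.01 to 0.02 for Acot8, 0.01 for Mpv17l and 0.00 for Pex6. A gene with few counts, such as Eci3, Ddo or Pipox, was measured less firmly than the others, and the cause of these shifts was not tested.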
